A study of Rattus norvegicus with 8 samples.

Results

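Manganese-treated cells were set against cells treated with either of a pair of respiratory inhibitors, MPP+ and 3-NPA, to find the genes in which the metal stood apart from both inhibitors in the same direction. The cells were N27, an immortalised line of embryonic rat mesencephalic cells that the labels call dopamine producing. Cells of the Mn group received 150 µM manganese for 48 h, cells of the MPP+ group received 250 µM MPP+ for 48 h, and the 3-NPA group is taken here to have received 3-nitropropionic acid, at a dose and time that the labels do not give. Each treatment was measured on 2 single-colour arrays, so the comparison used 6 of the 8 arrays of the series, 2 on the Mn side and 4 on the inhibitor side. The remaining 2 arrays, from control cells, lay outside the comparison and entered the fit only for the estimate of the spread and for the levels quoted beside the others. All cells were of 1 line grown in culture, and the labels do not say that the arrays of a group came from separate cultures, so a p-value covers no more than the spread between those arrays.

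Manganese is a nutrient metal that becomes toxic to the basal ganglia in excess, where workers exposed to it can develop a movement disorder resembling Parkinson's disease. MPP+ is the active form of the neurotoxin MPTP and blocks complex I of the respiratory chain, the entry point for electrons from NADH. 3-Nitropropionic acid inactivates succinate dehydrogenase, which is complex II of the same chain and an enzyme of the citric acid cycle. Cells with a failing respiratory chain commonly raise the integrated stress response, in which the transcription factor ATF4 switches on genes for amino acid supply. Manganese is also known to strengthen NF-kB signalling in glial cells, where it raises inducible nitric oxide synthase and inflammatory cytokines, and to act on kinases such as ERK.

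A level here is the log2 of the processed signal minus the 75th percentile of its array, so 0 is the 75th percentile of the array and 1 unit is a factor of 2. Values after ± are standard errors of a difference from limma over 2 arrays for each treatment, and adjusted p-values are from limma with Benjamini-Hochberg adjustment over all 16903 genes tested. The 75th percentile of the signal lay between 1026 and 1279 intensity units on the 8 arrays, and 0 spots were saturated. The share of spots well above background was 64.7% to 64.8% on the Mn arrays, 67.8% to 69.8% after MPP+, 68.7% to 70.4% after 3-NPA and 55.7% to 58.0% on the control arrays. The number of arrays limits the precision. All arrays lay on 1 slide and were read in 1 scan. The Mn and control arrays held the first row of that slide and the MPP+ and 3-NPA arrays the second, so slide row and the difference between Mn and the inhibitors cannot be told apart. Control and MPP+ arrays held columns 1 and 2 of the slide and Mn and 3-NPA arrays columns 3 and 4, so Mn and MPP+ differed in column as well. The 3-NPA arrays were extracted in a later run of the software than the others. On the first principal component, which held 43.9% of the variance, the 3-NPA arrays stood apart at 63.6 each, against -31.3 to -11.4 on the other 6 arrays.

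The labelled cell type was only partly borne out by its markers. Of 11 dopaminergic markers on the array, 3 were well above background on all 8 arrays, namely Th, which encodes tyrosine hydroxylase, Nr4a2, a transcription factor of midbrain dopamine neurons, and Slc18a2, the vesicular monoamine transporter. Another 4 were above background on none, among them Slc6a3, the dopamine transporter, and the floor plate factors Lmx1a and Foxa2. Of 6 markers of mature neurons, Map2 and Tubb3 were above background on all 8 arrays, and Nefl, Nefm, Snap25 and Syt1 on none. Th had levels of -1.87 and -2.02 on the Mn arrays, against -1.93 and -2.02 after MPP+ and -1.77 and -1.79 after 3-NPA. The Mn and MPP+ arrays overlapped, both 3-NPA arrays lay slightly above them, and the test did not pass (Mn minus inhibitors -0.07 ± 0.08, adjusted p = 0.606, limma).

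Mn differed from the mean of both inhibitors in 3020 genes, 17.9% of those tested, with 1201 higher (7.11%) and 1819 lower (10.8%) after Mn. Mn stood apart from each inhibitor alike, with an adjusted p below 0.05 and the same direction against MPP+ and against 3-NPA, in 671 genes (3.97%), of which 320 were higher (1.89%) and 351 lower (2.08%). The difference from MPP+ was called in 1532 genes (9.06%; 4.87% higher and 4.19% lower after Mn) and that from 3-NPA in 4837 (28.6%; 11.7% higher and 16.9% lower), and both use the same Mn arrays. In 29.8% of genes both Mn arrays lay above (13.2%) or both below (16.6%) all 4 inhibitor arrays. Of the genes called against the mean, 666 of the higher and 1247 of the lower ones passed against 3-NPA alone, and 178 and 173 against MPP+ alone. Without 1 of the 6 arrays, the count against the mean fell to between 1283 (without 3-NPA replicate 2) and 1611 (without Mn replicate 2). The count of genes apart from both alike was then 364 without Mn replicate 1, 496 without Mn replicate 2, 150 and 115 without MPP+ replicates 1 and 2, and 255 and 252 without 3-NPA replicates 1 and 2. Leaving out 1 of the 6 arrays left 1 array in its group and lowered the counts over all genes. Falls in the counts of gene lists without 1 array, given below, are to be read beside that. When the 4 inhibitor arrays were treated as 1 group, so that the difference between the inhibitors counted as spread, 157 genes were called, 95 higher and 62 lower after Mn, and all 157 were among the 671. Over all genes tested the median difference between Mn and the inhibitors was -0.04, and it was 0.05 when each array was centred on its median instead. That centring turned the balance of calls, to 1419 higher and 1121 lower after Mn against the mean (55.9% higher), and to 3472 higher and 1727 lower against 3-NPA (66.8% higher).

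**Figure D1:**
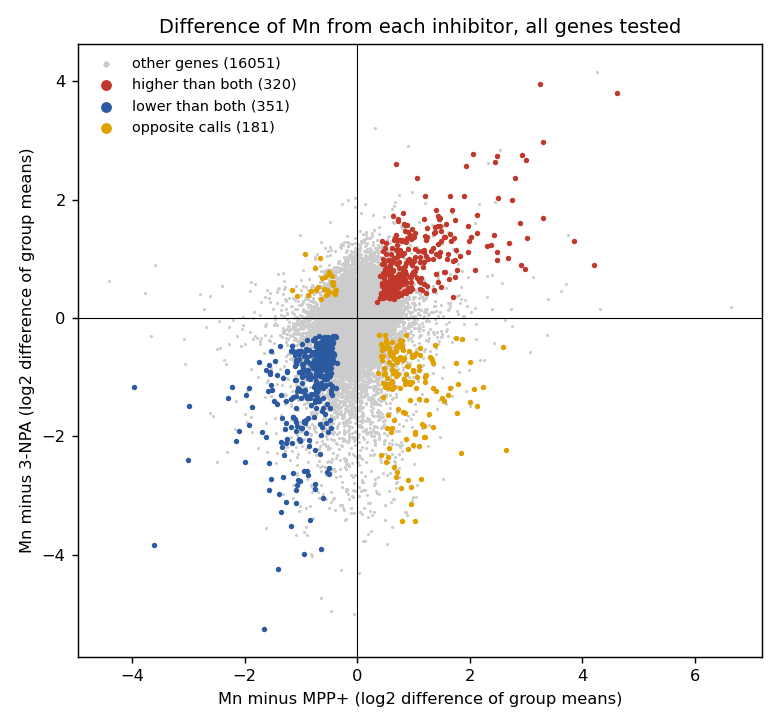
Each point is 1 of the 16903 genes tested, with the log2 difference between the Mn and MPP+ means on the x axis and between the Mn and 3-NPA means on the y axis. The 320 genes higher than both inhibitors lie at the upper right, the 351 genes lower than both at the lower left, and the 181 genes with opposite calls in the other quadrants; both axes use the same Mn arrays.

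The 320 genes higher after Mn had a median difference of 0.84 from the inhibitors, 76 of them lay at least 2-fold above each inhibitor, and 303 were well above background on all 6 arrays. Against control cells, Mn itself was called higher in 115 of the 320, and both inhibitors were called lower in 145, with 11 genes in both counts and 71 in neither. The 351 genes lower after Mn had a median difference of -0.87, 69 lay at least 2-fold below each inhibitor, and 286 were well above background on all 6 arrays. Mn was called lower than control in 77 of the 351, and both inhibitors were called higher than control in 178, with 4 genes in both counts and 100 in neither. Calls against control over all genes numbered 1291 for Mn (7.64%, with 4.51% higher and 3.13% lower), 2347 for MPP+ (13.9%, with 7.47% and 6.42%) and 6467 for 3-NPA (38.3%, with 22.3% and 16%), and these comparisons share the control arrays. The filter on background used the treated arrays and not the control arrays, so genes above background in control cells alone were left out. Fewer spots were well above background on the control arrays. The balance of higher and lower calls against control depends on both. The inhibitors did not pass a test of difference from each other in 214 of the 320 and 212 of the 351 genes.

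The widest separation above both inhibitors was that of Mgp, which encodes matrix Gla protein, a secreted inhibitor of calcification. Its level was 2.63 and 2.33 on the Mn arrays, against -2.15 and -2.13 after MPP+, -1.37 and -1.29 after 3-NPA, and -1.16 and -1.35 on the control arrays. Both Mn arrays were far above all others. The difference from the inhibitors was 4.21 ± 0.11 (adjusted p = 0.000352, limma), which is 24.5-fold over MPP+ and 14-fold over 3-NPA. The probe lies on chromosome 4 at 173910827 to 173910886 of the rn4 assembly, which is used for all probe positions.

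**Figure D2:**
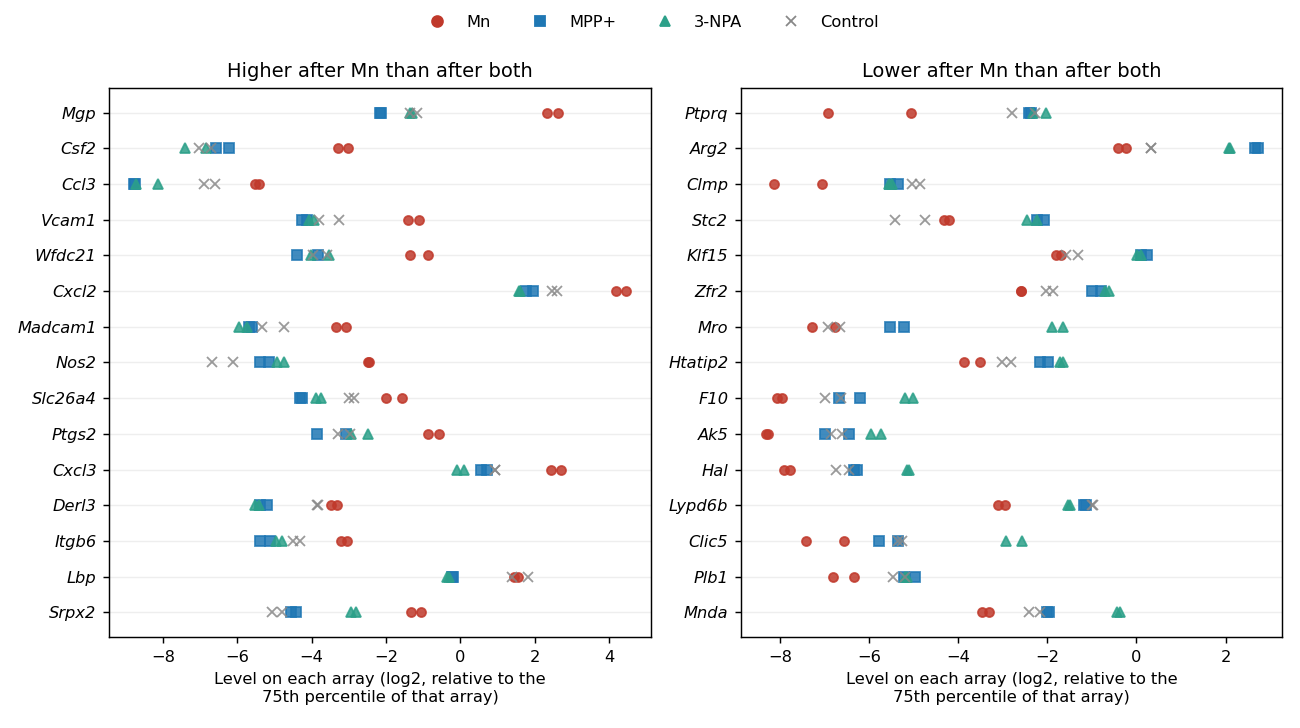
Levels on each array (log2, relative to the 75th percentile of the array) of the 15 genes highest above both inhibitors (left) and the 15 lowest below both (right), ordered by the smaller of the differences from the MPP+ and 3-NPA means. Each symbol is 1 array, and grey crosses mark the control arrays. The genes were chosen so that the Mn circles do not overlap with the inhibitor symbols.

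Genes of inflammatory signalling were often higher after Mn than after both inhibitors. Of 26 tested chemokine, cytokine and adhesion genes, 18 were higher and 1 was lower after Mn than the mean of the inhibitors, and 15 were higher and 1 lower than each inhibitor alike, where 1.89% and 2.08% of all genes were. The median difference of the list was 1.31 (1.17 with genes not well above background taken at their bound), against -0.04 over all genes. Medians against control cells were 0.93 for Mn, -0.29 for MPP+ and -0.36 for 3-NPA. With the inhibitor arrays as 1 group, 10 of the 26 were called higher, where 95 of all 16903 genes were. The first of the neutrophil-attracting chemokines, Cxcl2, had levels of 4.46 and 4.20 on the Mn arrays, against 1.95 and 1.75 after MPP+, 1.60 and 1.57 after 3-NPA, and 2.45 and 2.59 on the control arrays. Both Mn arrays exceeded every other array, by 2.61 ± 0.11 over the inhibitors (adjusted p = 0.000589, limma, 6.1-fold). Its neighbour Cxcl1, a ligand of the same receptor CXCR2, had 5.31 and 5.28 after Mn, against 3.85 and 3.88 after MPP+ and 3.58 and 3.55 after 3-NPA (difference 1.58 ± 0.08, adjusted p = 0.000589, limma). Cxcl3, also a CXCR2 ligand, had 2.71 and 2.43 after Mn, against 0.72 and 0.55 after MPP+ and 0.08 and -0.08 after 3-NPA (2.26 ± 0.11, adjusted p = 0.000589, limma). The 3 probes lie near each other on chromosome 14, at 18677165 to 18677224 for Cxcl2, 18690468 to 18690527 for Cxcl1 and 18786265 to 18786324 for Cxcl3.

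Chemokines for monocytes were also higher after Mn than after both inhibitors. Ccl7, which recruits monocytes, had -0.55 and -0.37 on the Mn arrays, against -3.22 and -3.46 after MPP+ and -2.06 and -2.07 after 3-NPA, with -1.58 and -1.34 on the control arrays (difference from the inhibitors 2.25 ± 0.12, adjusted p = 0.000694, limma). The adjacent Ccl2, whose product also attracts monocytes, was among the brighter genes, at 6.23 and 6.07 after Mn, 4.82 and 4.71 after MPP+ and 4.62 and 4.60 after 3-NPA (1.46 ± 0.13, adjusted p = 0.00272, limma). In both genes the inhibitor arrays lay below the control arrays. Ccl3, another chemokine for monocytes and macrophages, was well above background on the Mn arrays alone, at -5.41 and -5.52, and a fold for such a gene is given as a bound, taken against the lowest signal counted as well above background on the dim arrays. It was at least 2.37-fold higher after Mn than after MPP+ and at least 2.12-fold higher than after 3-NPA (adjusted p = 0.00172 and 0.000538, limma). Not all chemokines followed: Ccl20, which attracts cells bearing CCR6, had 0.04 and 0.14 after Mn, against -0.18 and -0.29 after MPP+ and -3.05 and -3.19 after 3-NPA, so the call came from 3-NPA (adjusted p = 0.242 against MPP+, limma). The interferon-induced chemokine Cxcl10 had 2.06 and 1.80 after Mn, above MPP+ (1.24 and 1.24) and below 3-NPA (3.00 and 2.82).

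Csf2, the growth factor GM-CSF of the myeloid lineage, had -3.28 and -3.03 on the Mn arrays, against -6.59 and -6.23 after MPP+ and -7.40 and -6.83 after 3-NPA, where the 3-NPA values were not well above background. It was 9.5-fold higher after Mn than after MPP+ and at least 10.5-fold higher than after 3-NPA (adjusted p = 0.00222 and 0.000357, limma). Vcam1, an adhesion molecule that binds leukocyte integrins, had -1.11 and -1.40 after Mn, against -4.12 and -4.25 after MPP+ and -4.06 and -3.94 after 3-NPA. Both Mn arrays were more than 2 units above all inhibitor arrays (2.84 ± 0.17, adjusted p = 0.00102, limma). Madcam1, an adhesion molecule of gut venules, had -3.07 and -3.35 after Mn, against -5.61 and -5.70 after MPP+ and -5.96 and -5.74 after 3-NPA (2.54 ± 0.18, adjusted p = 0.00147, limma). Icam1, which binds leukocyte integrins as well, did not pass (0.01 ± 0.08, adjusted p = 0.938, limma), with 3.45 and 3.56 after Mn between the MPP+ arrays (3.17 and 3.23) and the 3-NPA arrays (3.72 and 3.86). The cytokine Il18, which induces interferon gamma, was the member called lower; it was not well above background after Mn and lay at least 1.2-fold below MPP+ and at least 2.05-fold below 3-NPA (adjusted p = 0.0453 and 0.00323, limma).

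Nos2, Ptgs2, Lbp and Cfb were each higher after Mn than after both inhibitors. Nos2, the inducible nitric oxide synthase, had -2.49 and -2.45 on the Mn arrays, against -5.16 and -5.38 after MPP+ and -4.74 and -4.94 after 3-NPA. Every Mn array was above every inhibitor array, by 2.58 ± 0.17 (adjusted p = 0.00126, limma, 5.99-fold). Ptgs2, the inducible cyclooxygenase of prostaglandin synthesis, had -0.58 and -0.88 after Mn, against -3.08 and -3.86 after MPP+ and -2.49 and -2.95 after 3-NPA (2.36 ± 0.26, adjusted p = 0.00403, limma). Lbp, which hands lipopolysaccharide to its receptor complex, had 1.43 and 1.54 after Mn, against -0.19 and -0.22 after MPP+ and -0.31 and -0.37 after 3-NPA (1.76 ± 0.13, adjusted p = 0.00148, limma). Its level after Mn was close to that of control cells (1.80 and 1.39; Mn against control adjusted p = 0.662, limma), and both inhibitors were below control. Cfb, complement factor B of the alternative pathway, had -0.04 and 0.22 after Mn, against -1.21 and -1.24 after MPP+ and -1.10 and -0.99 after 3-NPA (1.22 ± 0.11, adjusted p = 0.00231, limma). Complement and antigen presentation genes as a list went both ways, with 4 of 26 higher and 6 lower, where 7.11% and 10.8% of all genes were, and a median of -0.02. The 6 became 3 without Mn replicate 1.

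NF-kB is a family of transcription factors held in the cytoplasm by IkB proteins, and it switches on its own inhibitors along with chemokine genes. Of 15 tested NF-kB subunit, inhibitor and target genes, 8 were higher than the mean of the inhibitors and 0 lower, where 7.11% and 10.8% of all genes were, and 6 were higher than each alike, where 1.89% of all genes were. The list median was 0.48. Nfkbia, which encodes IkB alpha, had 4.68 and 4.64 after Mn, against 4.20 and 4.04 after MPP+ and 3.79 and 3.57 after 3-NPA, with 4.70 and 4.58 in control cells (difference from the inhibitors 0.76 ± 0.10, adjusted p = 0.00667, limma). The Mn and control arrays overlapped, and the inhibitor arrays were all lower. Nfkbie, encoding IkB epsilon, differed by 0.69 ± 0.09 (adjusted p = 0.00643, limma), with -1.0015 and -0.8989 after Mn, -1.46 and -1.40 after MPP+ and -1.84 and -1.87 after 3-NPA. Nfkb2, the p100 precursor, differed by 0.71 ± 0.10 and Tnfaip2, a tumour necrosis factor target, by 1.16 ± 0.12 (adjusted p = 0.00877 and 0.00349, limma). The remaining members called alike were Nfkbiz and Birc3, a nuclear IkB protein and an inhibitor of apoptosis, at 0.56 ± 0.10 and 0.96 ± 0.14. With the inhibitor arrays as 1 group, 2 of the 15 were called higher, where 95 of all 16903 genes were.

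The stretches before the start of 5 of these genes are shown because each holds a kappaB site, the DNA sequence that NF-kB binds, searched by its consensus on both strands. They are the 180 bases before the annotated gene start from RefSeq on GRCr8, written on the strand of the gene, with the match in capitals.
Cxcl2: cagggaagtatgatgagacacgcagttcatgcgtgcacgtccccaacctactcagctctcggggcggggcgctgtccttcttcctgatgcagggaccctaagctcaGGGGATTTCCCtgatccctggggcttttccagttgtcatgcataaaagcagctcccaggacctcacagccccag
Cxcl1: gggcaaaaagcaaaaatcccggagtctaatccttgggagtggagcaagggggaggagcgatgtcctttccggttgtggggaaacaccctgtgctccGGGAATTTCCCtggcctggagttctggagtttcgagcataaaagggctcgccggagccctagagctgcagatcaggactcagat
Ccl7: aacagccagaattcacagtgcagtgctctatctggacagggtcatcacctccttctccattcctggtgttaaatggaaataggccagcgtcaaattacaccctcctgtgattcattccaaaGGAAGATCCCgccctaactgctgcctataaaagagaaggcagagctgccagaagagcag
Vcam1: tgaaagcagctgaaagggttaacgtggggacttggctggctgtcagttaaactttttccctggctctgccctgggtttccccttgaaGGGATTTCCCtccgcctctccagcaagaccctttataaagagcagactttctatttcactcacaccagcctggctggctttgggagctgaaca
Nfkbie: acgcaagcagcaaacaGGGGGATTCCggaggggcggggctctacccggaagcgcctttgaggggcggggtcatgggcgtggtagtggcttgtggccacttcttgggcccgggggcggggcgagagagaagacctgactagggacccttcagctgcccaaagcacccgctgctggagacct
The stretches lie at chr14:17467256-17467435 (Cxcl2, minus strand), chr14:17479322-17479501 (Cxcl1, minus), chr10:67513915-67514094 (Ccl7, plus), chr2:206742784-206742963 (Vcam1, minus) and chr9:22947873-22948052 (Nfkbie, minus). The matches begin 74, 84, 59, 93 and 164 bases before the gene start in that order. In the full windows of 250 bases before to 50 after the start, a kappaB match was present in 35 of the 216 genes higher than both inhibitors that had a window (16.2%), in 16 of 223 genes lower than both (7.17%), in 969 of 9956 genes tested (9.73%) and in 7.6% of all 27457 windows. It was present in 4 of 9 chemokine, cytokine and adhesion genes and 4 of 5 NF-kB genes higher than both. Among chemokine list members with a window that were not higher than both, Ccl20, Cxcl10, Cxcl11 and Lcn2 had a match. Icam1, Il11, Il18, Il1a and Tnf had none. In the NF-kB list, Bcl3, Nfkb1 and Tnip1 had a match without being higher than both, and Birc2, Nfkbib, Rela, Traf1 and Traf2 had none. The match was thus not limited to the members higher after Mn. These are matches of letters and show no binding.

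Genes of the immediate early response, which growth factors and stress switch on within minutes without new protein, were called higher after Mn in more cases against MPP+ than against 3-NPA. Of 28 tested, 11 were higher and 2 lower than the mean of the inhibitors (7.11% and 10.8% of all genes), and 7 were higher than each alike (1.89% of all genes), with a median of 0.23. Against MPP+, 14 were called higher and 0 lower, where 4.87% and 4.19% of all genes were. Against 3-NPA, 7 were higher and 6 lower, where 11.7% and 16.9% of all genes were. Medians against control cells were 0.40 for Mn, -0.23 for MPP+ and 0.33 for 3-NPA. Fos, the partner of JUN in the AP-1 factor, had 0.66 and 0.16 on the Mn arrays, against -3.66 and -3.95 after MPP+, -0.55 and -0.41 after 3-NPA, and 0.71 and 0.65 on the control arrays. It was 18.6-fold higher after Mn than after MPP+ and 1.85-fold higher than after 3-NPA (adjusted p = 0.000908 and 0.0172, limma). Egr1, a zinc finger factor induced by ERK signalling, had 5.0026 and 4.6112 after Mn, against 1.93 and 1.72 after MPP+ and 3.99 and 3.98 after 3-NPA (7.89-fold and 1.77-fold). Only the MPP+ arrays were far below control (4.20 and 4.02). Its relative Egr2 was called against MPP+ (13.1-fold) and not against 3-NPA (adjusted p = 0.0715, limma). Junb, a member of the JUN family, was unlike them in having similar levels after both inhibitors, with 6.54 and 6.18 after Mn, 4.66 and 4.60 after MPP+ and 4.75 and 4.66 after 3-NPA (1.70 ± 0.12, adjusted p = 0.00126, limma). The remaining 4 were Ier2, Ier3, Ier5 and Ccn2, and the members called lower than the mean were Nr4a3 and Fosl2, both through 3-NPA. With the inhibitor arrays as 1 group, 2 of the 28 were called higher, where 95 of all 16903 genes were.

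**Figure D3:**
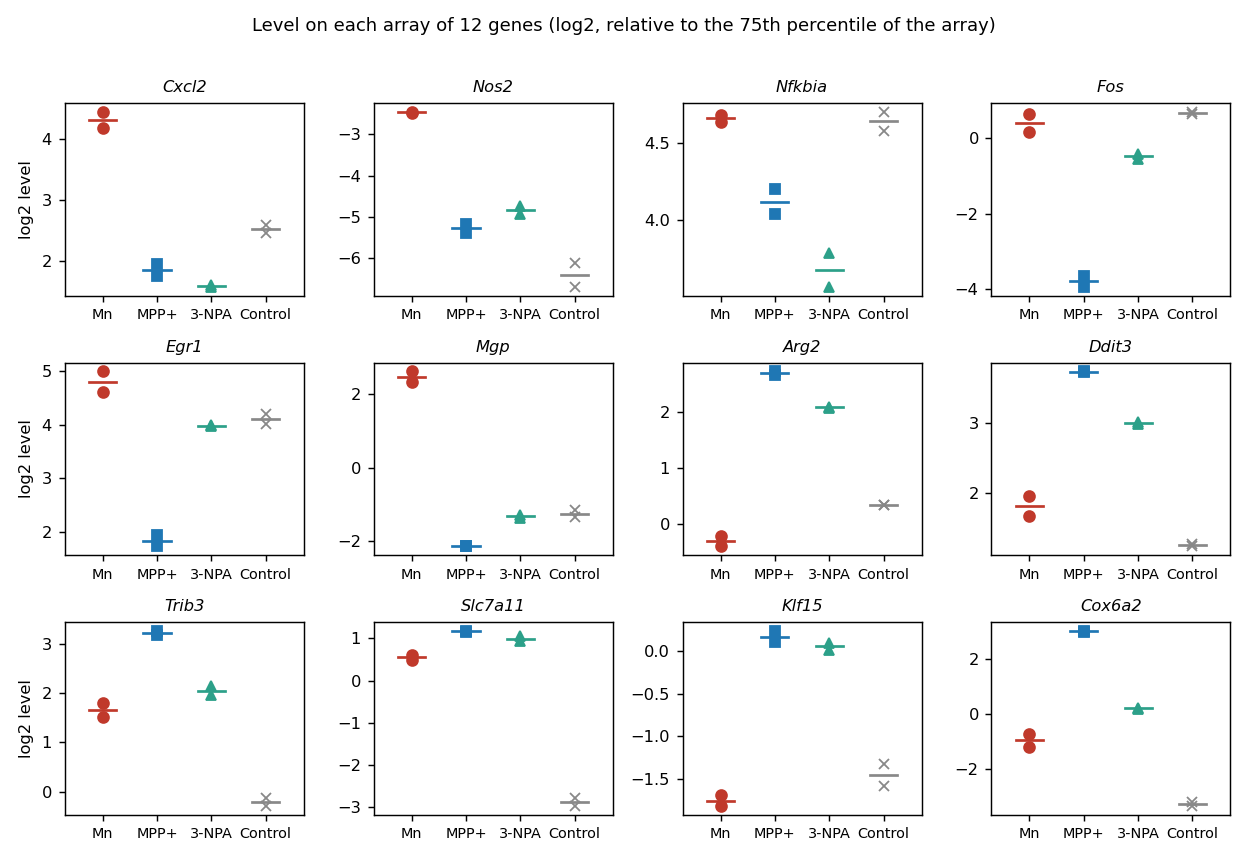
Levels of 12 genes on each array (log2, relative to the 75th percentile of the array), with each symbol 1 array, each line the mean of its group, and a separate y axis for every gene. Cxcl2, Nos2 and Mgp were highest after Mn, Fos and Egr1 were lowest after MPP+, Arg2 was lowest after Mn, and Trib3, Slc7a11 and Cox6a2 were above control after all 3 treatments with Mn the lowest of them.

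Genes that feed back on the ERK and cytokine pathways included 6 of 17 called higher and 1 lower than the mean of the inhibitors, where 7.11% and 10.8% of all genes were, with a median of 0.25. Of the 17, 5 were higher than each alike (1.89% of all genes). With the inhibitor arrays as 1 group, 3 were called higher and 0 lower (95 and 62 of all 16903 genes). Dusp6, a phosphatase that removes the activating phosphates of ERK, had 3.32 and 2.98 after Mn, against 1.33 and 1.47 after MPP+ and 1.99 and 2.01 after 3-NPA, and 1.05 and 1.03 in control cells. Both Mn arrays were the highest, by 1.45 ± 0.11 over the inhibitors (adjusted p = 0.0018, limma). Dusp1 and Dusp2, phosphatases of the same family, differed by 1.21 ± 0.10 and 1.46 ± 0.14 (adjusted p = 0.0022 and 0.00309, limma), although Dusp1 after Mn, at -2.63 and -2.80, lay below control cells, at -2.29 and -2.16. The other members higher than both were Cish, a suppressor of cytokine signalling, and Il1rl1, the receptor of interleukin 33. Spry1, an inhibitor of receptor tyrosine kinase signalling, was lower, at -0.56 and -0.71 after Mn, against -0.16 and -0.01 after MPP+ and 0.24 and 0.20 after 3-NPA (-0.70 ± 0.09, adjusted p = 0.006, limma).

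Matrix genes were higher after Mn more often than lower. Of 32 tested, 13 were higher and 5 lower than the mean of the inhibitors, where 7.11% and 10.8% of all genes were, so the count of lower members was near that of all genes. Of the 32, 7 were higher and 1 lower than each alike (1.89% and 2.08% of all genes), and the median was 0.39. After Mgp, the widest separation was that of Srpx2, a secreted sushi-repeat protein, with -1.06 and -1.34 on the Mn arrays, against -4.57 and -4.42 after MPP+, -2.81 and -2.95 after 3-NPA and -5.06 and -4.80 on the control arrays. It lay 9.82-fold above MPP+ and 3.21-fold above 3-NPA (adjusted p = 0.000908 and 0.00099, limma). Ccn2, the connective tissue growth factor, had 2.44 and 2.14 after Mn, against 0.41 and 0.53 after MPP+ and 1.28 and 1.22 after 3-NPA (1.43 ± 0.12, adjusted p = 0.00212, limma). Timp1, an inhibitor of matrix metalloproteinases, differed by 1.03 ± 0.07 (adjusted p = 0.00126, limma), and the others higher than both were Bgn, Sparc and Col3a1, which encode biglycan, osteonectin and a fibrillar collagen. Tnc, the glycoprotein tenascin C, was lower than both (-0.91 ± 0.14, adjusted p = 0.0104, limma). Itgb6, an integrin subunit that activates TGF-beta, had -3.05 and -3.21 after Mn, against -5.13 and -5.38 after MPP+ and -4.95 and -4.79 after 3-NPA (1.93 ± 0.12, adjusted p = 0.001, limma). With the inhibitor arrays as 1 group, 3 of the 32 matrix genes were called higher and 0 lower (95 and 62 of all 16903 genes).

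Markers of cells other than neurons were followed beside these lists, since matrix and chemokine genes are also products of fibroblasts, microglia and endothelium. The summed linear level of fibroblast and mural markers was 3.30 to 3.43 on the Mn arrays, against 1.91 to 2.01 after MPP+, 3.60 to 3.88 after 3-NPA and 2.07 to 2.41 on the control arrays. Against the mean of the inhibitors, 4 of 7 tested markers were called higher and 0 lower, where 7.11% and 10.8% of all genes were. Of the 7, 3 were higher than each inhibitor alike (1.89% of all genes). Col1a1 was called against the mean but lay above MPP+ and below 3-NPA (1.75 and -0.35), and a second probe for it differed by 0.02 from the mean. That of microglia and macrophage markers was 0.977 to 1.06 on the Mn arrays, against 0.787 to 0.891 after MPP+, 1.52 to 1.53 after 3-NPA and 0.961 to 0.981 in control cells. Of 17 microglial markers on the array, 7 were above background on all 8 arrays and 5 on none. Of 12 tested, 0 were called higher and 2 lower, where 7.11% and 10.8% of all genes were. Endothelial sums were 0.652 to 0.688 after Mn, 0.603 to 0.604 after MPP+, 0.938 to 0.968 after 3-NPA and 0.769 to 0.770 in control cells. Of 5 tested, 0 were called higher and 3 lower (7.11% and 10.8% of all genes). Astrocyte sums were 9.21 to 10.3 after Mn, 6.78 to 6.92 after MPP+, 14.5 to 15.5 after 3-NPA and 18.5 to 19.2 in control cells. Of 7 tested, 0 were called higher and 2 lower (7.11% and 10.8% of all genes). Oligodendrocyte sums were 0.43 to 0.49 after Mn, 0.42 to 0.46 after MPP+, 0.54 to 0.58 after 3-NPA and 0.48 to 0.50 in control cells. Of 9 tested, 0 were called higher and 2 lower (7.11% and 10.8% of all genes). In each of the endothelial, astrocyte and oligodendrocyte lists, 0 were lower than MPP+ (4.19% of all genes). In each, 3 were lower than 3-NPA (16.9% of all genes). The part of these cell types in the results was not tested, and in RNA of whole cultures more cells of a type and more RNA per cell cannot be told apart.

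**Figure D4:**
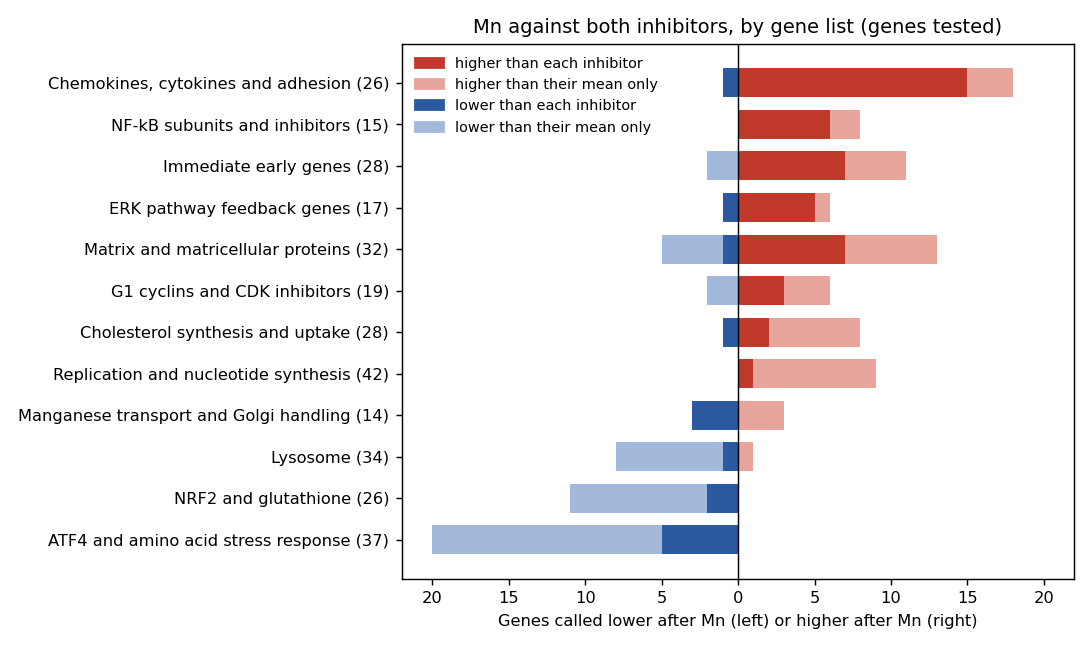
Number of genes called lower (left of 0) or higher (right of 0) after Mn in 12 gene lists, with the number tested in parentheses. The dark part of each bar counts genes called against each inhibitor alike and the light part those called only against the mean of both; the chemokine list extends farthest right (18 genes) and the ATF4 list farthest left (20 genes).

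Among the other genes highest above both inhibitors, Slc26a4 encodes pendrin, an anion exchanger of thyroid and inner ear. It had -2.0049 and -1.5727 after Mn, against -4.26 and -4.33 after MPP+, -3.88 and -3.76 after 3-NPA, and -2.86 and -2.99 in control cells (2.27 ± 0.13, adjusted p = 0.000949, limma). Derl3, which helps to draw misfolded proteins out of the endoplasmic reticulum, had -3.49 and -3.33 after Mn, against -5.22 and -5.39 after MPP+ and -5.53 and -5.41 after 3-NPA (1.97 ± 0.09, adjusted p = 0.000589, limma). Control cells had -3.86 and -3.84, so for Derl3 the inhibitors, and not Mn, were called against control (adjusted p = 0.00191, 0.000335 and 0.0663, limma). Wfdc21, a small secreted protein with a whey acidic protein domain, had -0.88 and -1.35 after Mn, against -3.82 and -4.40 after MPP+ and -3.54 and -4.02 after 3-NPA (2.83 ± 0.25, adjusted p = 0.00238, limma). Bhlhe40, a transcriptional repressor of the clock and hypoxia responses, had -0.50 and -0.72 after Mn, against -2.23 and -2.08 after MPP+ and -1.99 and -1.96 after 3-NPA (1.46 ± 0.09, adjusted p = 0.00108, limma). Over the 15 genes highest above both inhibitors, the smaller of the differences was at least 1.68 and the adjusted p from limma was at most 0.00403 against the mean, 0.00687 against MPP+ and 0.00581 against 3-NPA. Of these 15, 13 were also called higher than control after Mn (4.51% of all genes). With the inhibitor arrays as 1 group, 14 were called (157 of all 16903 genes).

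Cdkn2b and Cdkn2a, which encode INK4 inhibitors of the G1 phase of the cell cycle, were higher after Mn than after both inhibitors. Cdkn2b, which encodes p15, had 3.03 and 3.00 on the Mn arrays, against 2.31 and 2.33 after MPP+, 2.08 and 2.12 after 3-NPA and 2.22 and 2.21 on the control arrays (0.81 ± 0.07, adjusted p = 0.0022, limma). Its neighbour Cdkn2a, which encodes p16 and ARF, had 5.39 and 5.45 after Mn, against 4.77 and 4.63 after MPP+ and 4.43 and 4.31 after 3-NPA (0.88 ± 0.08, adjusted p = 0.00294, limma). Cdkn2c, which encodes the INK4 protein p18, was called against the mean through 3-NPA, with 1.01 and 0.83 after Mn, against 0.74 and 0.81 after MPP+ and 0.03 and -0.13 after 3-NPA (adjusted p = 0.412 against MPP+ and 0.00205 against 3-NPA, limma). After Mn it lay below control (1.68 and 1.62; adjusted p = 0.0157, limma). Cdk6, a kinase that these proteins inhibit, differed by 0.86 ± 0.13 (adjusted p = 0.0108, limma). Of 19 tested G1 genes, 6 were higher and 2 lower than the mean (7.11% and 10.8% of all genes), and the 6 became 3 without Mn replicate 1 or MPP+ replicate 1 and 4 without any other of the 6 arrays. Cdkn1a, the p53 target p21, lay between the inhibitors, at 2.52 and 2.27 after Mn, 1.73 and 1.84 after MPP+ and 3.21 and 3.35 after 3-NPA, and all 3 treatments were above control (0.49 and 0.29).

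Below both inhibitors, the gene with the widest separation among those well above background on all 6 arrays was Arg2, the mitochondrial arginase, which splits arginine into ornithine and urea and contains a manganese centre. Its level was -0.40 and -0.23 on the Mn arrays, against 2.65 and 2.73 after MPP+, 2.09 and 2.07 after 3-NPA and 0.34 and 0.33 on the control arrays. The Mn arrays were the lowest and the inhibitor arrays all above control. The difference from the inhibitors was -2.70 ± 0.08 (adjusted p = 0.000403, limma), or 8.03-fold below MPP+ and 5.27-fold below 3-NPA. The cytosolic arginase Arg1 went another way, with 1.01 and 0.73 after Mn, against -1.03 and -0.99 after MPP+ and 0.85 and 0.83 after 3-NPA (adjusted p = 0.00204 against MPP+ and 0.904 against 3-NPA, limma). Both arginases belong to a list of 14 tested genes of manganese transport and handling, of which 3 were higher and 3 lower, with a median of 0.04. Of all genes, 7.11% were higher and 10.8% lower. Slc40a1, the iron exporter ferroportin, which also carries manganese, was lower than both, at -2.42 and -2.57 after Mn, -1.84 and -1.83 after MPP+ and -0.23 and -0.16 after 3-NPA (-1.48 ± 0.09, adjusted p = 0.001, limma). Slc11a2, the divalent metal transporter, was called higher through 3-NPA alone (0.39 ± 0.07), as was Sod2, the manganese superoxide dismutase (0.74 ± 0.11). Slc39a14, a manganese importer, had -4.25 and -4.48 after Mn, -4.53 and -4.89 after MPP+ and -4.18 and -4.54 after 3-NPA, and did not pass (adjusted p = 0.557, limma). Tfrc, the transferrin receptor, was higher than both, with 3.59 and 3.76 after Mn, against 2.74 and 2.89 after MPP+ and 3.21 and 3.30 after 3-NPA (0.64 ± 0.10, adjusted p = 0.0122, limma).

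Genes of the ATF4 and amino acid stress response were lower after Mn than after the inhibitors, most often against MPP+, while their medians were above control after all 3 treatments. Of 37 tested, 0 were higher and 20 lower than the mean of the inhibitors, where 7.11% and 10.8% of all genes were, and 5 were lower than each alike (2.08% of all genes), with a median of -0.41. Against MPP+, 21 were lower, where 4.19% of all genes were. Against 3-NPA, 8 of the 37 were lower, which was near the 16.9% of all genes. The medians against control were 0.55 for Mn, 1.24 for MPP+ and 0.87 for 3-NPA. Ddit3, the stress factor CHOP, had 1.95 and 1.67 on the Mn arrays, against 3.72 and 3.73 after MPP+, 3.01 and 2.98 after 3-NPA and 1.28 and 1.24 on the control arrays (-1.55 ± 0.10, adjusted p = 0.00108, limma). The groups did not overlap. Stc2, a secreted glycoprotein of the stress response, had -4.20 and -4.33 after Mn, against -2.24 and -2.08 after MPP+ and -2.24 and -2.47 after 3-NPA, 4.32-fold and 3.77-fold below them. Slc7a3, a carrier of cationic amino acids, had 1.40 and 1.03 after Mn, against 2.65 and 2.52 after MPP+, 1.66 and 1.72 after 3-NPA and -0.81 in each control array (-0.92 ± 0.12, adjusted p = 0.0061, limma). Slc7a11, the cystine carrier, had 0.61 and 0.49 after Mn, against 1.18 and 1.16 after MPP+, 0.94 and 1.05 after 3-NPA and -2.78 and -2.97 in control cells (-0.53 ± 0.09, adjusted p = 0.0145, limma), and a second probe for it differed by -0.18. Nupr1, a stress-induced chromatin protein, was the other member lower than both (-0.59 ± 0.09, adjusted p = 0.00962, limma). Trib3, a pseudokinase induced by ATF4 and CHOP, and Asns, asparagine synthetase, passed against MPP+ (2.95-fold and 1.83-fold lower) and not against 3-NPA (adjusted p = 0.0803 and 0.323, limma). Atf4 itself had 5.44 and 5.53 after Mn, against 6.01 and 6.10 after MPP+ and 5.67 and 5.76 after 3-NPA (-0.40 ± 0.08, adjusted p = 0.0263, limma). The count of 20 fell to 14 when each array was centred on its median, and to 9, 9, 9, 7, 12 and 9 without Mn replicate 1 or 2, MPP+ replicate 1 or 2, or 3-NPA replicate 1 or 2. With the inhibitor arrays as 1 group, 1 of the 37 was called lower, where 62 of all 16903 genes were. The count over all genes also fell without 1 array.

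The starts of Nupr1 and Trib3 are shown because each holds the amino acid response element to which ATF4 binds as a dimer with a C/EBP protein, here TGATGNAA on either strand. The letters in capitals are the match, which reads on the opposite strand in both.
Nupr1: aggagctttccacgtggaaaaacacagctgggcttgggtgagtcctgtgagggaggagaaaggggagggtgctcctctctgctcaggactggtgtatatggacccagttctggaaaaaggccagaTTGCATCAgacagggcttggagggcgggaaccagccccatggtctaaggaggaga
Trib3: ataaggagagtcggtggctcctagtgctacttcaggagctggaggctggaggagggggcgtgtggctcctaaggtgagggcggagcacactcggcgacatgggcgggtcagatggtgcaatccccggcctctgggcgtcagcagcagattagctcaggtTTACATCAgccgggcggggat
They lie at chr1:190645902-190646081 and chr3:161275534-161275713 of GRCr8 (RefSeq), both on the minus strand, and the matches begin 55 and 21 bases before the gene start. The element was present in 1 of 4 ATF4 list genes lower than both that had a window, in 7 of 216 genes higher than both (3.24%), in 5 of 223 lower than both (2.24%), in 218 of 9956 genes tested (2.19%) and in 3.82% of all windows. Among ATF4 list members with a window that were not lower than both, Cars1, Chac1, Fgf21, Herpud1, Jdp2, Pycr1, Slc1a4, Slc7a1 and Trib3 had it, and the others did not. The element was thus not limited to the members lower than both. A match of letters shows no binding.

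Genes of the NRF2 response, which protects against oxidants through glutathione, were called lower after Mn in more cases against 3-NPA than against MPP+. Of 26 tested, 0 were higher and 11 lower than the mean of the inhibitors, where 7.11% and 10.8% of all genes were, with a median of -0.39. Against 3-NPA 14 were lower (16.9% of all genes), against MPP+ 2 were (4.19% of all genes), and 2 were lower than both (2.08% of all genes). Without 1 of the 6 arrays the count of 11 fell to between 6 and 8, with the value of 6 reached without either MPP+ array or without 3-NPA replicate 2, and with the inhibitor arrays as 1 group to 1. Over all 16903 genes, 62 were called lower with the inhibitor arrays as 1 group, and the count without 1 array fell as well. Srxn1, which repairs oxidised peroxiredoxins, had 2.85 and 2.60 after Mn, against 3.11 and 3.14 after MPP+ and 4.12 and 4.10 after 3-NPA (adjusted p = 0.0725 against MPP+ and 0.000686 against 3-NPA, limma). Nqo1, a quinone reductase, had -2.77 and -3.07 after Mn, against -2.64 and -2.54 after MPP+ and -1.36 and -1.56 after 3-NPA, and all 3 treatments were above control (-3.99 and -4.19). Abcc4, an exporter of organic anions, was with Slc7a11 one of the members lower than both (-0.73 ± 0.10, adjusted p = 0.00686, limma). Hmox1, heme oxygenase, did not pass (-0.07 ± 0.19, adjusted p = 0.831, limma), with 0.04 and 0.37 after Mn, -0.35 and -0.14 after MPP+ and 0.88 and 0.71 after 3-NPA. Metallothionein Mt1 was lower through 3-NPA, with 5.05 and 4.98 after Mn, 5.33 and 5.37 after MPP+ and 6.53 and 6.46 after 3-NPA (adjusted p = 0.061 against MPP+, limma).

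Other genes lower than both inhibitors had less in common. Klf15, a zinc finger factor that controls amino acid and glucose metabolism, had -1.69 and -1.81 on the Mn arrays, against 0.23 and 0.10 after MPP+, 0.02 and 0.10 after 3-NPA and -1.57 and -1.32 on the control arrays. The inhibitor arrays were all above Mn and control (-1.87 ± 0.10, adjusted p = 0.000743, limma; Mn against control adjusted p = 0.184). Htatip2, known in human as an oxidoreductase that represses nuclear import, had -3.51 and -3.88 after Mn, against -1.98 and -2.17 after MPP+ and -1.66 and -1.71 after 3-NPA (-1.81 ± 0.13, adjusted p = 0.00153, limma). Zfr2, a zinc finger RNA-binding protein, differed by -1.82 ± 0.09 (adjusted p = 0.000619, limma). Mnda, a nuclear antigen of myeloid cells in the interferon-inducible p200 family, had -3.31 and -3.46 after Mn, against -2.01 and -1.96 after MPP+ and -0.44 and -0.38 after 3-NPA (-2.19 ± 0.10, adjusted p = 0.000589, limma). Lypd6b, a LY6 protein that modulates nicotinic receptors, was lower by -1.69 ± 0.08 (adjusted p = 0.000589, limma), while a second probe for it differed by -0.22. Ptprq, a receptor phosphatase of hair cells, had -6.94 and -5.08 after Mn, of which 1 was well above background, against -2.36 and -2.42 after MPP+ and -2.03 and -2.32 after 3-NPA (adjusted p = 0.00676, limma). The size of that difference rests on a signal near background.

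Signal near background limited the lower group more than the higher one. Of the 351 genes lower after Mn, 55 (15.7%) were not well above background on either Mn array, against 10 of the 320 higher genes that were so on an inhibitor. In 8 of the 55, 1 inhibitor was not well above background on either array too, so no order between Mn and that inhibitor can be read. Of the 15 genes lowest below both inhibitors, 7 were on neither Mn array above background, namely Clic5, Mro, F10, Hal, Ak5, Clmp and Plb1. Clic5, an intracellular chloride channel protein, lay at least 1.4-fold below MPP+ and at least 9.93-fold below 3-NPA (adjusted p = 0.0434 and 0.000573, limma). Mro, known in mouse as a nucleolar protein of the developing testis, lay at least 1.61-fold below MPP+ and at least 19.5-fold below 3-NPA (adjusted p = 0.0114 and 0.00015, limma). Clmp, an adhesion molecule of tight junctions, lay at least 1.53-fold and 1.45-fold below them. For Hal, histidine ammonia-lyase, the MPP+ arrays were at background as well and the bound against 3-NPA was at least 1.9-fold. Of these 15 genes, 12 were called lower than control after Mn (3.13% of all genes). With the inhibitor arrays as 1 group, 9 were called (157 of all 16903 genes). Ak5, F10, Clic5 and Clmp are among the 12 but were not well above background on any Mn or control array. No order between Mn and control can be read for them.

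Mitochondrial and cell death genes gave single cases rather than a shared change. Cox6a2, the muscle form of a subunit of cytochrome oxidase, had -0.73 and -1.18 on the Mn arrays, against 2.99 and 3.02 after MPP+, 0.18 and 0.23 after 3-NPA and -3.19 and -3.34 on the control arrays, 15.6-fold below MPP+ and 2.24-fold below 3-NPA (adjusted p = 0.000857 and 0.00408, limma). In the list of complexes III to V, 0 of 38 genes were higher and 2 lower with a median of 0.00, and in complex I 5 of 36 were higher and 0 lower with a median of 0.07, where 7.11% and 10.8% of all genes were. The 5 became 1 without Mn replicate 2 and 0 without any other of the 6 arrays, and the 2 became 1 without Mn replicate 2 or any inhibitor array. Counts over all genes fell without 1 of these arrays as well. Sdha, the catalytic subunit of the enzyme that 3-NPA inactivates, did not pass (-0.27 ± 0.08, adjusted p = 0.0739, limma), nor did Ndufs1 of complex I (-0.03 ± 0.09, adjusted p = 0.866, limma). Hrk, a proapoptotic protein of the BCL2 family, had -4.91 and -4.83 after Mn, against -3.54 and -3.65 after MPP+, -3.01 and -2.97 after 3-NPA and -6.74 and -6.63 in control cells (-1.58 ± 0.08, adjusted p = 0.000619, limma), while a second probe for it differed by 0.17. In the BCL2 family 1 of 17 genes was higher and 3 lower, with a median of 0.01. Pitx3, a transcription factor of dopamine neurons, was not well above background after Mn and lay at least 1.89-fold below MPP+ and at least 3.41-fold below 3-NPA (adjusted p = 0.0316 and 0.00147, limma). Its levels after Mn, at -6.07 and -5.92, overlapped with those of control cells, at -5.84 and -6.26. Of 15 tested dopaminergic genes, 1 was higher and 3 lower than the mean, where 7.11% and 10.8% of all genes were. The median of that list was -0.07.

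Genes in which Mn lay between the inhibitors were counted apart. In 181 genes (1.07%) the calls against MPP+ and 3-NPA were opposite, with Mn above MPP+ and below 3-NPA in 153 and the reverse in 28. The inhibitors differed from each other in all 181, which follows from Mn lying between them. The inhibitors themselves differed in 5239 genes (31%), 2178 higher (12.9%) and 3061 lower (18.1%) after MPP+ than after 3-NPA. When each array was centred on its median this balance turned, to 4541 higher and 1748 lower (72.2% higher). Arc, an immediate early gene of synaptic plasticity, had -1.69 and -1.81 after Mn, above MPP+ (-3.48 and -3.25) and below 3-NPA (-0.50 and -0.40), with differences of 1.62 and -1.30 (adjusted p = 0.00418 and 0.00222, limma). Cd74, the invariant chain of class II antigen presentation, had -4.29 and -4.48 after Mn, above MPP+ (-6.58 and -6.46) and below 3-NPA (-2.93 and -2.87). Rprml, a protein related to the cell cycle inhibitor reprimo, lay at least 4.53-fold above MPP+ and 4.72-fold below 3-NPA. In 21 of the 181 genes, Capns2, S100a7a and Abhd12b among them, neither Mn nor 1 of the inhibitors was well above background, and the order between those groups cannot be read.

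**Figure D5:**
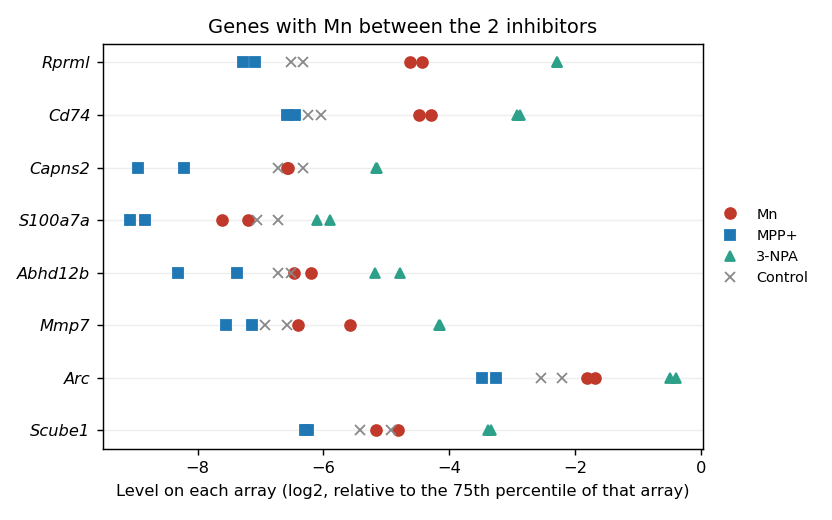
Levels on each array (log2, relative to the 75th percentile of the array) of the 8 genes with the widest opposite calls, with each symbol 1 array. The genes were chosen for opposite calls, which place Mn between the inhibitors, and in all 8 the Mn circles lie right of the MPP+ squares and left of the 3-NPA triangles. Capns2, S100a7a and Abhd12b were not well above background on the Mn and MPP+ arrays.

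Some genes called against the mean of the inhibitors passed against 1 inhibitor alone. Ldhb, the lactate dehydrogenase subunit that favours lactate use, had -5.49 and -5.71 on the Mn arrays and -5.54 and -5.54 on the MPP+ arrays, against -0.65 and -0.54 on the 3-NPA arrays (-2.53 ± 0.12 from the mean, adjusted p = 0.803 against MPP+, limma). Gsta1, a glutathione S-transferase, was at background after Mn and MPP+ and at least 10.8-fold below 3-NPA after Mn. Celf2, an RNA-binding protein, was at background after Mn and varied between the control arrays (-5.56 and -3.50). It lay at least 2.69-fold below 3-NPA (adjusted p = 0.0329, limma), while the difference from MPP+ did not pass (adjusted p = 0.0622, limma). The inhibitors had similar levels of Celf2, at -4.87 and -4.31 after MPP+ and -4.79 and -4.48 after 3-NPA. Tas1r2, a sweet taste receptor, and Prss46, a serine protease, were called higher than the mean, with adjusted p = 0.0377 and 0.0388 (limma). Their Mn arrays were at -5.51 and -3.54 for Tas1r2 and at -4.76 and -4.46 for Prss46, and both genes were near background on the inhibitor arrays.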

How the data were processed

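RNA was labelled with Cy3 from an oligo-dT primer and hybridised to Agilent single-colour rat arrays, per the labels' protocols. Per the file headers, Agilent Feature Extraction 11.5.1.1 gave each spot an intensity after subtraction of background and spatial detrending, put a surrogate in place of spots not above background, and placed probes on rn4. The authors' deposited value table holds log2 values whose making is not given in the sources used here. Its columns had medians between -4.38 and -3.99 and 75th percentiles between 0.0137 and 0.0259, and correlated with the scanner values at 0.9966 or more, so each array was taken to be centred near its 75th percentile on a log2 scale, with no turned direction, and what else was changed is unknown.

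Control spots and outlier spots were left out, the spots of a probe were averaged on the log2 scale, and each array was set to 0 at its 75th percentile. Of 30328 probes used, 18345 (60.5%) matched a RefSeq accession. Probes were kept if both arrays of Mn, of MPP+ or of 3-NPA were well above background, which left 19457, and the brightest probe stood for each of 16903 genes, 12141 with a symbol and 2319 with more than 1 kept probe. R 4.3.3 and limma 3.58.1 fitted group means over all 8 arrays with 4 residual and 2.06 prior degrees of freedom. The contrasts were Mn minus the mean of the inhibitors and Mn minus each of them. The fit was tested on simulated data. The smallest 2-sided exact permutation p for 2 arrays against 4 is 0.133, so that test was not used for single genes. Alternatives changed background correction, scaling, filter, probe rule, variance model, pairing and the arrays used.

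The comparison and the 48 gene lists were chosen with earlier results of these data known. Named genes were the 15 per direction apart from both inhibitors with the largest smaller difference, up to 4 members per list by p, 47 listed genes, the 8 widest opposite genes and 3 per direction called against the mean alone. Others were named after their values were seen (Ccl2, Ccl20, Cxcl10, Icam1, Il18, Nfkbiz, Birc3, Ier5, Nr4a3, Fosl2, Cish, Spry1, Bgn, Sparc, Tnc, Nupr1, Atf4 and marker genes). Some list members were named only for the presence or absence of a kappaB match or of the amino acid response element. Some genes that fit the rule are not reported here.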

Additional observations from a re-analysis of the deposited data

Results flagged for a closer look

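The 8 genes with the widest opposite calls against the inhibitors are listed here, because the mean of the inhibitors describes neither inhibitor in them. They were chosen with Mn between the inhibitors, so a gap between the inhibitors follows from that choice and is no separate result. The limma difference of MPP+ minus 3-NPA, over 2 arrays each, was -4.8894 on the log2 scale for Rprml, -3.6211 for Cd74, -3.425 for Capns2, -2.956 for S100a7a, -2.8637 for Abhd12b, -3.1883 for Mmp7, -2.9159 for Arc and -2.9076 for Scube1. All 8 were lower after MPP+ than after 3-NPA, with adjusted p-values from limma between 9.22e-05 (Rprml) and 0.002 (Abhd12b). Mn minus the mean of the inhibitors was 0.21 for Rprml, 0.32 for Cd74 and 0.16 for Arc, and none of these passed (adjusted p = 0.233, 0.082 and 0.428, limma). Rprml, Capns2, S100a7a, Abhd12b and Mmp7 were not well above background on either MPP+ array, so the sizes of these differences depend on signals near background.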

How the results depend on the processing

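The comparisons were repeated under 24 other settings, though not every comparison under each. Treating the inhibitors as 1 group applied to the difference from their mean alone. The arrays of the first extraction alone, a setting chosen after seeing the data, were run for Mn minus MPP+ only. Of 5334 values of 244 genes, 4562 kept their side of the threshold, 701 lost the call, 68 gained one and 3 changed sign with a call in at least 1 of the settings compared. A change of sign in a gene called in neither setting was not counted. The sign changed for Rprml with normexp background correction (-0.25277, and 0.21 in the report's setting) and, in the deposited value table, for Cspg4 (0.029162, and -0.87) and Dnajc6 (0.51012, and -1.53). The 15 genes highest above both inhibitors lost the call in 2 of their values and the 15 lowest in 11, none of them through leaving out an array. With no filter on dim probes the counts were 1571 against the mean of the inhibitors, 297 against both alike and 582 against MPP+. With the inhibitors as 1 group 157 were called. Trend and robust variances gave 2346 against MPP+, array weights gave 7985 between the inhibitors, and the first extraction run alone gave 643 against MPP+. At least 2-fold, the counts were 588 against the mean, 145 against both alike, 398 against MPP+, 1466 against 3-NPA and 1491 between the inhibitors. Leaving out 1 array in turn gave 1283 to 3399 against the mean, 115 to 764 against both alike, 209 to 1701 against MPP+, 2140 to 5329 against 3-NPA and 2261 to 5764 between the inhibitors. The causes were not tested. Centring each array on its median moved the share of higher calls to 55.9% against the mean (39.8% in the report's setting), to 66.8% against 3-NPA (40.9%) and to 72.2% between the inhibitors (41.6%), and with no filter it was 60.3% among genes apart from both alike (47.7%). The list medians kept their value within the spread in 994 of 1079 cases.

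The arrays share replicate numbers. Mn and 3-NPA arrays of the same number, which shared a slide column, deviated together (correlation of deviations 0.499). The other pairs of groups gave -0.025 to 0.0975, among them control and MPP+, which also shared columns (0.0248). A part of slide position in this was not tested. The labels state no pairing, so the numbers were not taken to pair the arrays. With a replicate block the counts were 2676 against the mean, 531 against both alike, 1218 against MPP+, 4546 against 3-NPA and 5068 between the inhibitors. The alternative without saturated probes was not run because no spot reached saturation. Slide row and treatment cannot be told apart, nor can slide column and the difference between Mn and MPP+. The dose and time of 3-NPA are unknown, and signals near background limit the genes lower after Mn.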

Other observations

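Genes of cholesterol synthesis and uptake were below control after every treatment by median (-0.55 for Mn, -0.72 for MPP+ and -0.93 for 3-NPA) and higher after Mn than the mean of the inhibitors in 8 of 28, with 1 lower and a median of 0.25, where 7.11% of all genes were higher and 10.8% lower. Srebf2, the transcription factor that controls the pathway, had 3.24 and 3.11 after Mn, against 2.63 and 2.72 after MPP+ and 2.42 and 2.43 after 3-NPA (0.63 ± 0.09, adjusted p = 0.00777, limma). Hsd17b7, a late enzyme of the pathway, was also higher than both (0.81 ± 0.10, adjusted p = 0.00612, limma), and Fdft1, squalene synthase, was lower than both, at 3.36 and 2.97 after Mn, 3.9971 and 4.0586 after MPP+ and 4.10 and 4.14 after 3-NPA (-0.91 ± 0.12, adjusted p = 0.00681, limma). The 8 became 4 without Mn replicate 1 and 3 without any other of the 6 arrays or with no filter on dim probes. Of 42 replication and nucleotide synthesis genes, 9 were higher and 0 lower (median 0.21), and without either MPP+ or either 3-NPA array, or with no filter, the 9 became 0. Mcm3, a subunit of the replicative helicase, was the member higher than both (0.45 ± 0.08, adjusted p = 0.0182, limma).

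In the TGF-beta family, Id1, an inhibitor of differentiation induced by BMP, had 4.42 and 4.39 after Mn, against 3.59 and 3.53 after MPP+ and 2.87 and 2.81 after 3-NPA (1.20 ± 0.08, adjusted p = 0.00126, limma). Bambi, a decoy receptor of the family, was lower than both, at 1.45 and 1.81 after Mn, 2.53 and 2.50 after MPP+ and 3.00 and 2.97 after 3-NPA (-1.12 ± 0.12, adjusted p = 0.00348, limma). Tgfb3, a ligand, was lower than both as well (-0.83 ± 0.13, adjusted p = 0.0119, limma). Lysosomal genes included 8 of 34 called lower and 1 higher than the mean (median -0.22), where 10.8% and 7.11% of all genes were. The 8 fell to 4 without Mn replicate 2 and to 5 without either MPP+ or either 3-NPA array. Of 10 aryl hydrocarbon receptor targets, 5 were lower and 0 higher than the mean, where 10.8% and 7.11% of all genes were. Against 3-NPA 8 of the 10 were lower (16.9% of all genes), and 0 passed against MPP+. The 5 became 3 without Mn replicate 2, MPP+ replicate 2 or 3-NPA replicate 2. Interferon-responsive genes went both ways, with 6 of 33 higher and 7 lower, where 7.11% and 10.8% of all genes were, and a median of 0.02. The 6 became 2 without Mn replicate 1, 4 without Mn replicate 2 and 3 without any inhibitor array, and the 7 became 3 without Mn replicate 2, 1 without 3-NPA replicate 2 and 2 without any other of the 6 arrays. Proteasome, mitosis, cytosolic ribosome and autophagy genes had 1 of 31, 1 of 35, 0 of 60 and 1 of 28 called higher and 0, 0, 1 and 2 called lower than the mean, where 7.11% and 10.8% of all genes were. Against 3-NPA alone, 13 of the 31 proteasome genes were higher and 0 lower, where 11.7% and 16.9% of all genes were.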
